A study of Mus musculus with 2 samples.

Results

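Natural killer (NK) cell barcodes with at least 1 unique molecular identifier (UMI) of Cd27 and 0 of Klrg1 were described in mouse tumours under 2 treatments, IL-15SA+IL-21Fc and IL-15SA. These barcodes, called members below, were chosen by measured UMI counts. A barcode had to hold at least 1 UMI of Ncr1, the gene of NKp46, and less than 0.15% of its UMIs in Col1a1, Col1a2, Sparc, Cald1, Pcolce and Lrp1, genes of tumour or stroma cells. It also had to hold fewer than 2 UMIs of the cycling genes Mki67, Rrm2, Ccnb2 and Top2a, fewer than 3 of Cxcr6, Il7r, Tcrg-C1, Krt83 and Lta, genes of innate lymphoid cells type 1 (ILC1), and fewer than 3 of the Ly49 genes Klra1, Klra7 and Klra13-ps. Of 20821 barcodes, 7743 passed these limits and 582 of them were members. They were set against 3020 comparators, which passed the same limits with 0 Cd27 UMIs and at least 2 of Klrg1.

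CD27 is a receptor of the tumour necrosis factor receptor superfamily that binds CD70 and costimulates lymphocytes. In the mouse, NK cells carry CD27 early in their maturation and lose it after they gain CD11b, and KLRG1, an inhibitory receptor for cadherins, marks late stages. Early NK cells are known for chemokine and cytokine output, and late ones for large stores of perforin and granzymes and for exit into the blood through S1PR5.

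The study profiled cells sorted as CD45.2-positive, CD3-negative and NKp46-positive from CT26_b2m-/- colon carcinoma tumours in mice, a graft that by its label lacks B2m, the chain that holds MHC class I together at the surface. By the sample titles, which differ from the series title in naming IL-21Fc as an addition to IL-15SA and not by itself, 1 library came from treatment with IL-15SA+IL-21Fc, here the combination, and 1 from IL-15SA. The tumour was the same in both groups, each group was pooled before loading, and no untreated library was analysed here. The labels state no dose, time or animal age. IL-15 and IL-21 are cytokines that signal to NK cells through the common gamma chain. With 1 library per group there is no replicate check, cells are not replicates, and no test was made. All intervals are 95% and cover counting error alone.

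The combination library held 12435 barcodes and 35336180 UMIs, and the IL-15SA library 8386 barcodes and 30893388 UMIs. The median barcode had 2343 UMIs in the combination library and 3041.5 in the IL-15SA library. The limit on cycling genes alone failed 4425 and 3746 barcodes in the same order, so most cycling barcodes are outside the members. A single UMI of these genes was allowed, and 303 of 414 members of the combination library and 119 of 168 of the IL-15SA library had 0. Both libraries shared 60 barcode sequences. Of the members, 5 in the combination library and 1 in the IL-15SA library carried such a sequence, and 0 were members in both.

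The combination library had 414 members among 4897 passing barcodes, a share of 8.45% (exact binomial interval 7.69 to 9.27). The IL-15SA library had 168 among 2846, a share of 5.90% (5.07 to 6.83). The 2 intervals do not overlap, but the rule reads Cd27 and Klrg1 UMIs and so depends on depth. After each barcode was thinned to 1000 UMIs before the rule was applied, the shares were 7.59% and 5.99%. Thinning also lowers the counts that the limits on cycling, ILC1 and Ly49 genes read, so barcodes that fail at full depth can then pass. Members then numbered 461 in the combination library and 240 in the IL-15SA library. The gap between the libraries was thus smaller at equal depth, in sets that differ from those at full depth. Members had a median of 1841 UMIs in the combination library and 2121.5 in the IL-15SA library, and comparators had 2234 and 2661. Shallower barcodes more often miss a transcript, so a Klrg1 count of 0 need not mean that the cell lacks Klrg1.

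**Figure D1:**
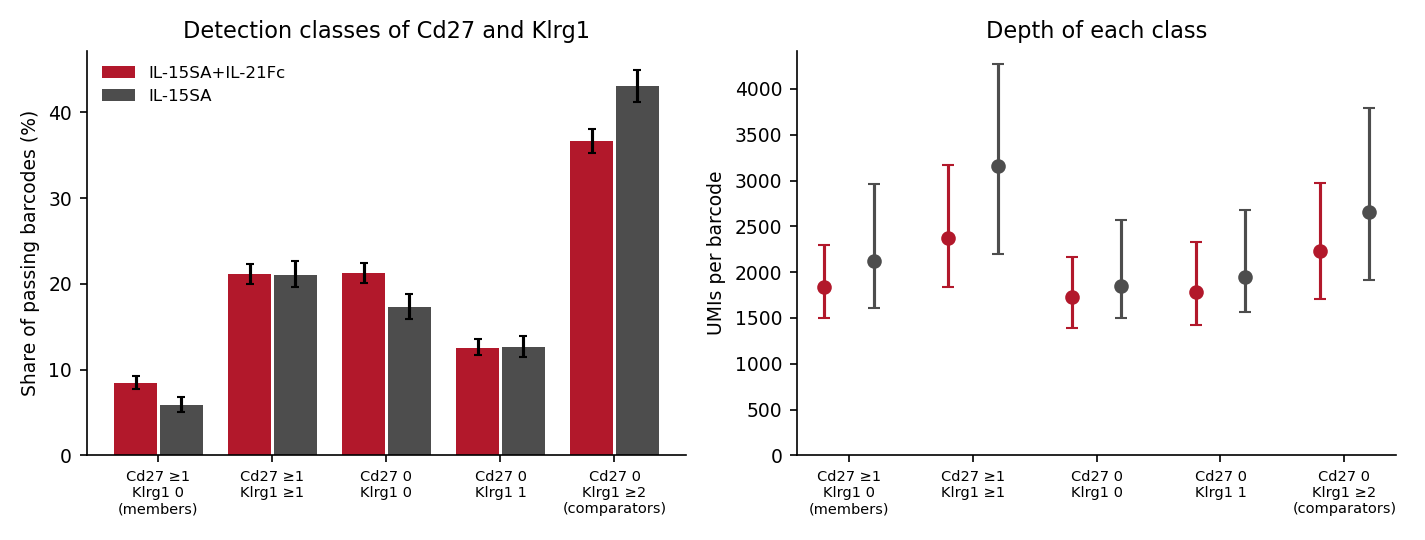
Left, share of passing barcodes (%) in 5 detection classes of Cd27 and Klrg1 by library, with exact binomial 95% intervals. Right, median UMIs per barcode with the lower and upper quartiles. Members made up 8.45% of passing barcodes in the combination library and 5.90% in the IL-15SA library, and held fewer UMIs than comparators in both.

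Most members sat at the edge of the rule. In the combination library 256 of 414 members had 1 Cd27 UMI, 109 had 2 and 49 had 3 or more, up to 7. In the IL-15SA library these numbers were 102, 41 and 25, up to 5. Just outside the rule, 264 and 133 barcodes had Cd27 and exactly 1 Klrg1 UMI, and 1041 and 493 barcodes had neither transcript. Comparators had a median of 4 Klrg1 UMIs in both libraries. Cd27 lies on chromosome 6 at 125232622 to 125237010 and Klrg1 on the same chromosome at 122270596 to 122282882 (mm10, GENCODE M21).

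Members expressed more of the chemokine gene Xcl1 and the adhesion gene Emb than comparators, and less Gzma, Prf1 and Serpinb9b. This held in both libraries. Of 5197 genes at 20 counts per 1000000 UMIs (CPM) or more, 146 (2.81%) were at least 1.5-fold higher in members in both libraries and 60 (1.15%) were at least 1.5-fold lower. With size factors in place of CPM the split was 95 higher and 90 lower. The median log2 ratio over all these genes was 0.06 in both libraries by CPM, and -0.03 in the combination library and -0.06 in the IL-15SA library with size factors. Log2 ratios were taken after adding 1 CPM to each value, and ratios with an interval without it. Fewer cells with a transcript and fewer transcripts per cell cannot be told apart in these sums.

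**Figure D2:**
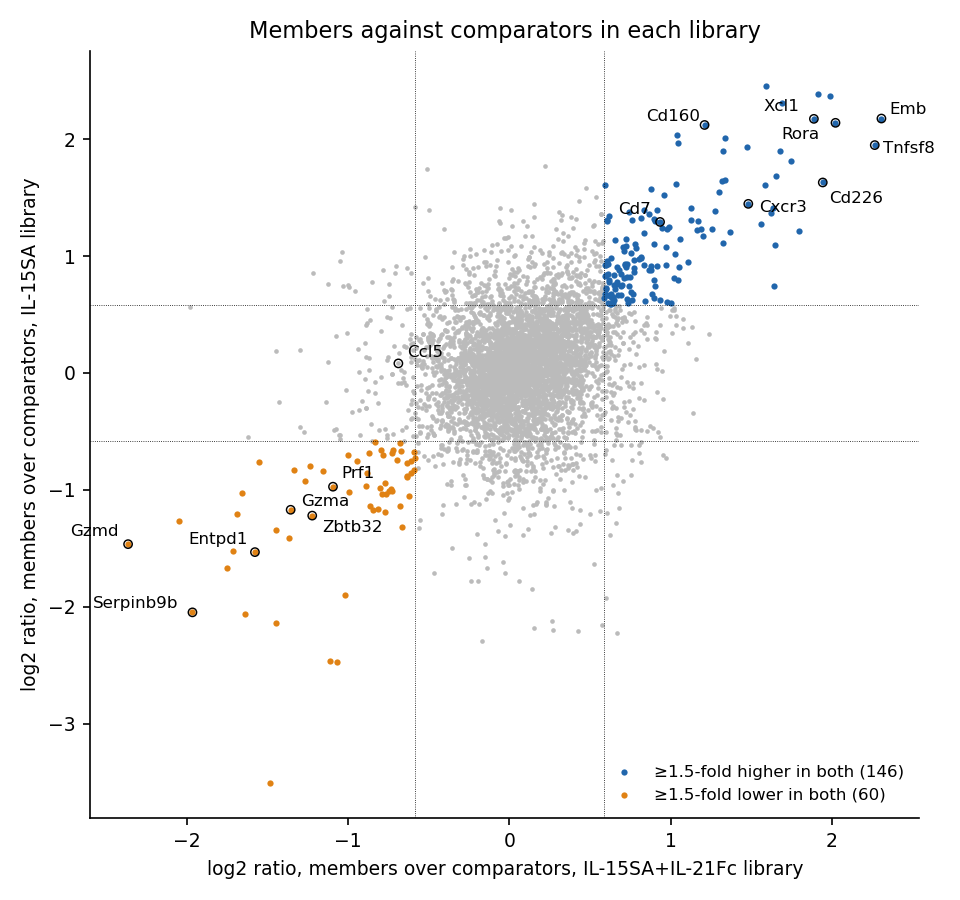
Log2 ratio of members over comparators for each of 5197 genes, in the combination library (x axis) and in the IL-15SA library (y axis). Dotted lines mark 1.5-fold. Xcl1, Emb, Rora and Cd226 lie at the upper right, Gzma, Prf1, Serpinb9b and Gzmd at the lower left, and Ccl5 left of the lower limit in the combination library alone.

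Members of gene lists were counted at a lower limit, 5 CPM in members or comparators of either library. Of all 9913 genes past it, 496 (5%) were at least 1.5-fold higher in members of both libraries and 290 (2.93%) lower, and the median log2 ratio was 0.07 in the combination library and 0.06 in the IL-15SA library. Each list count below is to be read against these shares.

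The label of these barcodes, immature NK cells, was set beside 15 measured genes of early NK stages other than those the rule uses. Members and lists were chosen with earlier results of these data known, so this is not an independent check of the label. Emb, Cxcr3, Ltb, Xcl1, Cd160 and Cd7 were at least 1.5-fold higher in members in both libraries, and Thy1 and Gzmk at least 1.5-fold lower. The list's median log2 ratio was 0.93 in the combination library and 0.57 in the IL-15SA library. Tcf7, the transcription factor gene of early stages, was at 4.80 CPM in members and 1.82 CPM in comparators of the combination library. It had 0 UMIs in members and was at 1.08 CPM in comparators of the IL-15SA library, a level too low to be read in so few members. Ctla2a had 0 UMIs in members of both. Id3 was at 22.8 CPM in members of the combination library, against 2.05 CPM in comparators, but had 0 UMIs in members of the IL-15SA library.

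Late-stage genes divided the label further. Of 14 measured, 0 were at least 1.5-fold higher and 3, Gzma, Prf1 and Cma1, at least 1.5-fold lower in members of both libraries. Cma1 also marks mast cells, and rested on 6 and 5 UMIs in members. Ly6c2, a gene of late NK cells, was at 1575 CPM in members and 1111 CPM in comparators of the combination library, and at 1318 and 963 CPM in the IL-15SA library. Tbx21, which encodes the maturation factor T-bet, was at 301 CPM in members and 256 CPM in comparators of the combination library, and at 300.2 and 202 CPM in the IL-15SA library. Members were thus not lower in either gene. Zeb2 and S1pr5 were low in both populations. Zeb2 was at 16.8 CPM in members and 22.3 CPM in comparators of the combination library, and at 12.2 and 17.3 CPM in the IL-15SA library. For S1pr5 these levels were 7.20 and 14.8 CPM, and 7.32 and 7.29 CPM. In members Zeb2 rested on 14 and 5 UMIs and S1pr5 on 6 and 3, too few to read a difference of stage. Itgam, the gene of CD11b, and Irf8 had 0 UMIs in every population of both libraries, so this stage marker could not be read. Such a 0 can come from the assignment of reads and need not mean absence. Because Thy1, Gzmk and Ly6c2 do not follow the label, the barcodes are called by their rule.

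Among ligands, Xcl1, whose product draws in dendritic cells that carry XCR1, was at 2936 CPM in members and 792 CPM in comparators of the combination library, a ratio of 3.70 (3.52 to 3.90). It was at 2448 CPM in members and 542 CPM in comparators of the IL-15SA library, a ratio of 4.52 (4.18 to 4.88). The intervals of the 2 populations did not overlap in either library. Xcl1 lies on chromosome 1 at 164931644 to 164935527. Csf2, which encodes GM-CSF, was at 120.0 CPM in members and 37.6 CPM in comparators of the combination library, and at 151 and 70.5 CPM in the IL-15SA library. Ltb, a lymphotoxin chain gene, was at 1231 CPM in members and 758 CPM in comparators of the combination library, and at 808 and 478 CPM in the IL-15SA library.

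Tnf and Tnfsf14, the gene of LIGHT, were also at least 1.5-fold higher in both libraries, which made 5 of the 13 measured cytokine and chemokine genes, with 0 lower. For Tnfsf14 the difference in the IL-15SA library turned round, to a log2 ratio of -0.66, once barcodes with any ILC1 gene were left out. The median log2 ratio of the list was 0.48 in the combination library and 0.75 in the IL-15SA library. Ifng, the interferon gamma gene, was at 359 CPM in members and 281 CPM in comparators of the combination library, and at 378 and 303 CPM in the IL-15SA library. Ccl5, a T cell attractant, differed between the libraries. It was at 7125 CPM in members and 11476 CPM in comparators of the combination library, a ratio of 0.621 (0.604 to 0.638). In the IL-15SA library it was at 4679 CPM in members and 4421 CPM in comparators, a ratio of 1.06 (1.01 to 1.11). The difference between these 2 ratios was not tested. With barcodes thinned to equal depth, Ccl5 was detected in 88.4% of members and 88.0% of comparators of the combination library. The median was 4 UMIs in both, and the upper quartile was 10 UMIs in members and 18 in comparators. The lower sum in members of that library thus lay in barcodes with much Ccl5, not in the median barcode. In the IL-15SA library the shares were 73.8% and 67.1%, with medians of 2 and 1 UMIs.

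Ligands of the tumour necrosis factor family that were low in count stood out by their ratio to comparators. Tnfsf8, the CD30 ligand gene, was at 43.2 CPM in members and 8.20 CPM in comparators of the combination library, and at 26.8 and 6.21 CPM in the IL-15SA library. Tnfsf10, the gene of the death ligand TRAIL, was at 36.0 CPM in members and 10.02 CPM in comparators of the combination library, and at 36.6 and 9.73 CPM in the IL-15SA library. Members of the IL-15SA library held 409704 UMIs in all, so 20 CPM stood for 8.19 UMIs there and these ratios are imprecise. Barcodes with neither Cd27 nor Klrg1 had similar levels, 31.9 CPM of Tnfsf8 and 37.0 CPM of Tnfsf10 in the combination library. In the IL-15SA library they had 33.9 and 34.8 CPM. Cd70, the gene of the CD27 ligand, was at 1.20 CPM in members of the combination library, and had 0 UMIs in members of the IL-15SA library.

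Surface receptors and adhesion genes higher in members than in comparators began with Emb, which encodes embigin. It was at 430 CPM in members and 86.1 CPM in comparators of the combination library. Emb was at 366 CPM in members and 80.2 CPM in comparators of the IL-15SA library. Its ratios were 4.99 (4.31 to 5.79) and 4.56 (3.72 to 5.57), alike in both libraries. Emb lies on chromosome 13 at 117208536 to 117274415. Cd226, the gene of the nectin receptor DNAM-1, was at 156 CPM in members and 39.8 CPM in comparators of the combination library, and at 107 and 34.04 CPM in the IL-15SA library. Cxcr3, a receptor for interferon-induced chemokines, was at 109 CPM in members and 38.5 CPM in comparators of the combination library, and at 87.9 and 31.6 CPM in the IL-15SA library. These were the 2 of 26 homing and adhesion genes at least 1.5-fold higher in both libraries, and 0 were lower. Barcodes with neither Cd27 nor Klrg1 had 110 CPM of Cd226 and 84.2 CPM of Cxcr3 in the combination library. In the IL-15SA library they had 126 and 80.9 CPM, so these genes do not set members apart from that class in both libraries.

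Among 23 NK receptor genes, Cd160, Klrb1f and Klrc3 were at least 1.5-fold higher in members of both libraries and Klra3, a Ly49 gene outside the rule, was lower. Cd160, a receptor for HVEM, was at 265 CPM in members and 114 CPM in comparators of the combination library, a ratio of 2.33 (1.98 to 2.73). It was at 312 CPM in members and 71.1 CPM in comparators of the IL-15SA library, a ratio of 4.40 (3.53 to 5.45). Klra3 was at 219.6 CPM in members and 555 CPM in comparators of the combination library, and at 244 and 435 CPM in the IL-15SA library. Ly49 genes are close copies of each other, and reads shared among them leave Klra3 uncertain. Klrk1, the gene of the activating receptor NKG2D, was at 625 CPM in members and 477 CPM in comparators of the combination library, and at 515 and 383 CPM in the IL-15SA library. Cd7 was at 1496 CPM in members and 782 CPM in comparators of the combination library, and at 1054 and 430 CPM in the IL-15SA library.

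Receptors for cytokines differed little as a list, with Il2ra and Il18r1 at least 1.5-fold higher in members of both libraries among 20 measured genes and 0 lower. Il2ra, the high-affinity chain of the IL-2 receptor, was at 34.8 CPM in members and 10.9 CPM in comparators of the combination library, and at 39.1 and 12.2 CPM in the IL-15SA library. Il18r1, a chain of the IL-18 receptor, was at 138 CPM in members and 72.8 CPM in comparators of the combination library, and at 115 and 60.3 CPM in the IL-15SA library. For the drugs' own receptors, Il2rb, which signals for IL-15, had a ratio of members to comparators of 1.06 (0.982 to 1.15) in the combination library and 0.982 (0.879 to 1.09) in the IL-15SA library. Il21r had ratios of 1.41 (0.849 to 2.25) and 1.69 (0.832 to 3.17), intervals that include 1. Il2rg had 0 UMIs throughout.

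Genes of the cytotoxic granule were divided, with the perforin gene and several granzyme genes lower in members. Of 27 measured, Gzma, Gzmd, Gzme, Gzmf, Gzmg, Gzmk, Prf1 and Serpinb9b were at least 1.5-fold lower in both libraries, and Gzmm, Ctsd and Tnfsf10 at least 1.5-fold higher. The list had a median log2 ratio of -0.21 in the combination library and -0.23 in the IL-15SA library, and 9 of its genes were above 0 in both. Gzma, the gene of granzyme A, was at 7698 CPM in members and 19698 CPM in comparators of the combination library, which was 2.56-fold lower (2.49 to 2.63). Gzma was at 9331 CPM in members and 20994 CPM in comparators of the IL-15SA library, 2.25-fold lower (2.18 to 2.32). Members were thus lower in each library, with intervals that lie well apart from 1. Gzma lies on chromosome 13 at 113093825 to 113100981.

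Prf1, the perforin gene, was at 867 CPM in members and 1850 CPM in comparators of the combination library, and at 1123 and 2204 CPM in the IL-15SA library. Gzmb was at 4287 CPM in members and 6786 CPM in comparators of the combination library, and at 5907 and 8305 CPM in the IL-15SA library, where it missed 1.5-fold. Perforin and both main granzymes were therefore lower in members of each library. Serpinb9b, of the family of granzyme B inhibitors, was at 110.4 CPM in members and 434 CPM in comparators of the combination library, 3.93-fold lower (3.19 to 4.90), and at 97.6 and 407 CPM in the IL-15SA library, 4.16-fold lower (3.04 to 5.85). Gzmd was at 27.6 CPM in members and 146 CPM in comparators of the combination library, and at 105 and 291 CPM in the IL-15SA library. The genes Gzmc to Gzmg are neighbours of near-identical sequence, so each single value is uncertain.

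Checkpoint genes went both ways among 11 measured. Entpd1, the gene of the ectonucleotidase CD39, was at 33.6 CPM in members and 102 CPM in comparators of the combination library, and at 39.1 and 115 CPM in the IL-15SA library. Havcr2, the TIM-3 gene, was at 1.20 CPM in members and 9.79 CPM in comparators of the combination library, and at 7.32 and 29.7 CPM in the IL-15SA library. It rested on 1 and 3 UMIs in members, and barcodes with neither Cd27 nor Klrg1 had 2.03 and 8.47 CPM. Tox, Cd200r1 and Nt5e were at least 1.5-fold higher in members, but Nt5e rested on 6 UMIs in members of the combination library and 4 in those of the IL-15SA library, and its log2 ratio was -0.29 in the combination library once barcodes with any ILC1 gene were left out. Tnfrsf9, the gene of the costimulatory receptor 4-1BB, was at 294 CPM in members and 442 CPM in comparators of the combination library, and at 403 and 667 CPM in the IL-15SA library.

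Of 31 transcription factor genes, Rora, Maf, Tox, Klf3 and Foxo3 were at least 1.5-fold higher in members of both libraries and Zbtb32 lower. Rora, a nuclear receptor gene of innate lymphoid cells, was at 57.6 CPM in members and 13.4 CPM in comparators of the combination library, and at 41.5 and 8.65 CPM in the IL-15SA library. Maf was at 79.2 CPM in members and 35.7 CPM in comparators of the combination library, and at 63.5 and 23.2 CPM in the IL-15SA library. Zbtb32, a repressor gene induced in proliferating NK cells, was at 37.2 CPM in members and 88.1 CPM in comparators of the combination library, and at 63.5 and 149 CPM in the IL-15SA library. The lineage factor genes were closer. Eomes was at 88.8 CPM in members and 134 CPM in comparators of the combination library, and at 100.1 and 113 CPM in the IL-15SA library, where the interval of the ratio, 0.627 to 1.22, included 1. Id2 had ratios of 0.958 (0.909 to 1.01) and 0.911 (0.852 to 0.973).

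Further genes led the ranking by ratio. Cited4, a transcriptional coactivator gene, was at 239 CPM in members and 75.1 CPM in comparators of the combination library, and at 164 and 50.3 CPM in the IL-15SA library. Acpp, which encodes an acid phosphatase, was at 92.4 CPM in members and 28.2 CPM in comparators of the combination library, and at 68.3 and 17.6 CPM in the IL-15SA library. Adgrg5, Asb2 and Serpinb1a completed the 12 highest, at 28.8 to 44.4 CPM in members of either library. On the other side Gpx8, a glutathione peroxidase family gene of the endoplasmic reticulum, was at 51.6 CPM in members and 217 CPM in comparators of the combination library, and at 73.2 and 177 CPM in the IL-15SA library. Ociad2, Dixdc1, Tmsb15a and Cd55 completed the 12 lowest, and Dixdc1 rested on 7 and 1 UMIs in members.

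**Figure D3:**
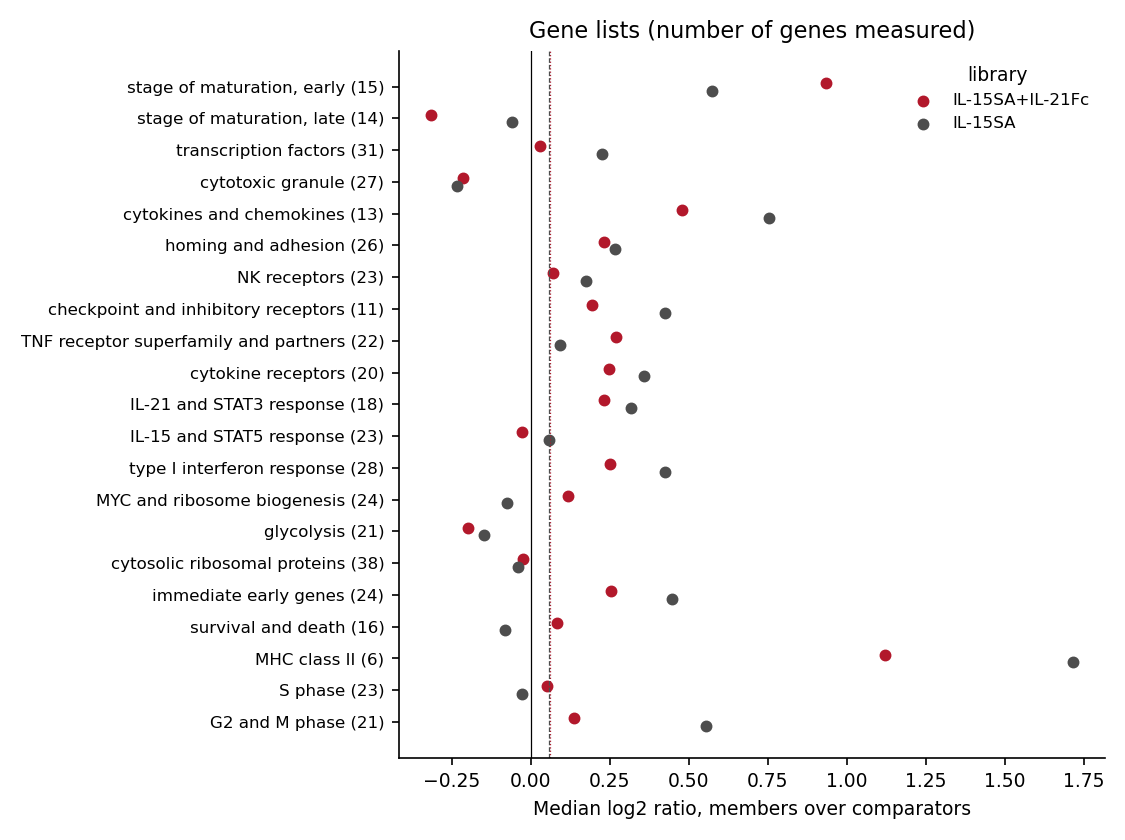
Median log2 ratio of members over comparators for 21 gene lists, by library, with the number of genes measured in each. The dotted and dashed vertical lines mark the median over all 5197 genes, 0.06 in both libraries. MHC class II, early-stage and cytokine genes lie to the right of it and cytotoxic granule and glycolysis genes to the left.

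The pattern of members was compared across the detection classes of Cd27 and Klrg1. Barcodes with neither transcript resembled members and not comparators in the leading genes. Xcl1 was at 2936 CPM in members, 1321 CPM in barcodes with both transcripts, 2805 CPM in barcodes with neither and 792 CPM in comparators of the combination library. In the IL-15SA library the same order gave 2448, 857, 2281 and 542 CPM. The ratio of members to barcodes with neither was 1.05 (0.998 to 1.10) and 1.07 (0.996 to 1.16), so these neighbours in the order did not differ beyond counting error.

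In Gzma, members and barcodes with neither were the 2 lowest classes. It was at 7698 CPM in members, 17500.1 CPM in barcodes with both, 9334 CPM in barcodes with neither and 19698 CPM in comparators of the combination library. The same order gave 9331, 18827, 11603 and 20994 CPM in the IL-15SA library. Here members were below barcodes with neither, with ratios of 0.825 (0.801 to 0.849) in the combination library and 0.804 (0.775 to 0.834) in the IL-15SA library. Prf1 had ratios to the same class of 0.880 (0.807 to 0.960) and 0.878 (0.788 to 0.976). Emb had ratios of 1.29 (1.13 to 1.47) in the combination library and 1.21 (0.992 to 1.48) in the IL-15SA library, where the interval includes 1. Members thus lay beyond barcodes with neither in Gzma and Prf1, by less than 1.5-fold. Thy1, which is lower in members than in comparators, had a ratio of members to barcodes with neither of 1.05 (0.937 to 1.17) in the combination library and 1.01 (0.879 to 1.15) in the IL-15SA library. Genes that differed between members and barcodes with neither were few by count. Of 5318 genes, 39 (0.733%) were at least 1.5-fold higher in members in both libraries and 37 (0.696%) lower. Against barcodes with both transcripts, 121 of 5238 genes (2.31%) were at least 1.5-fold higher in members and 51 (0.974%) lower. These comparisons share the members, so the counts are not independent of each other.

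**Figure D4:**
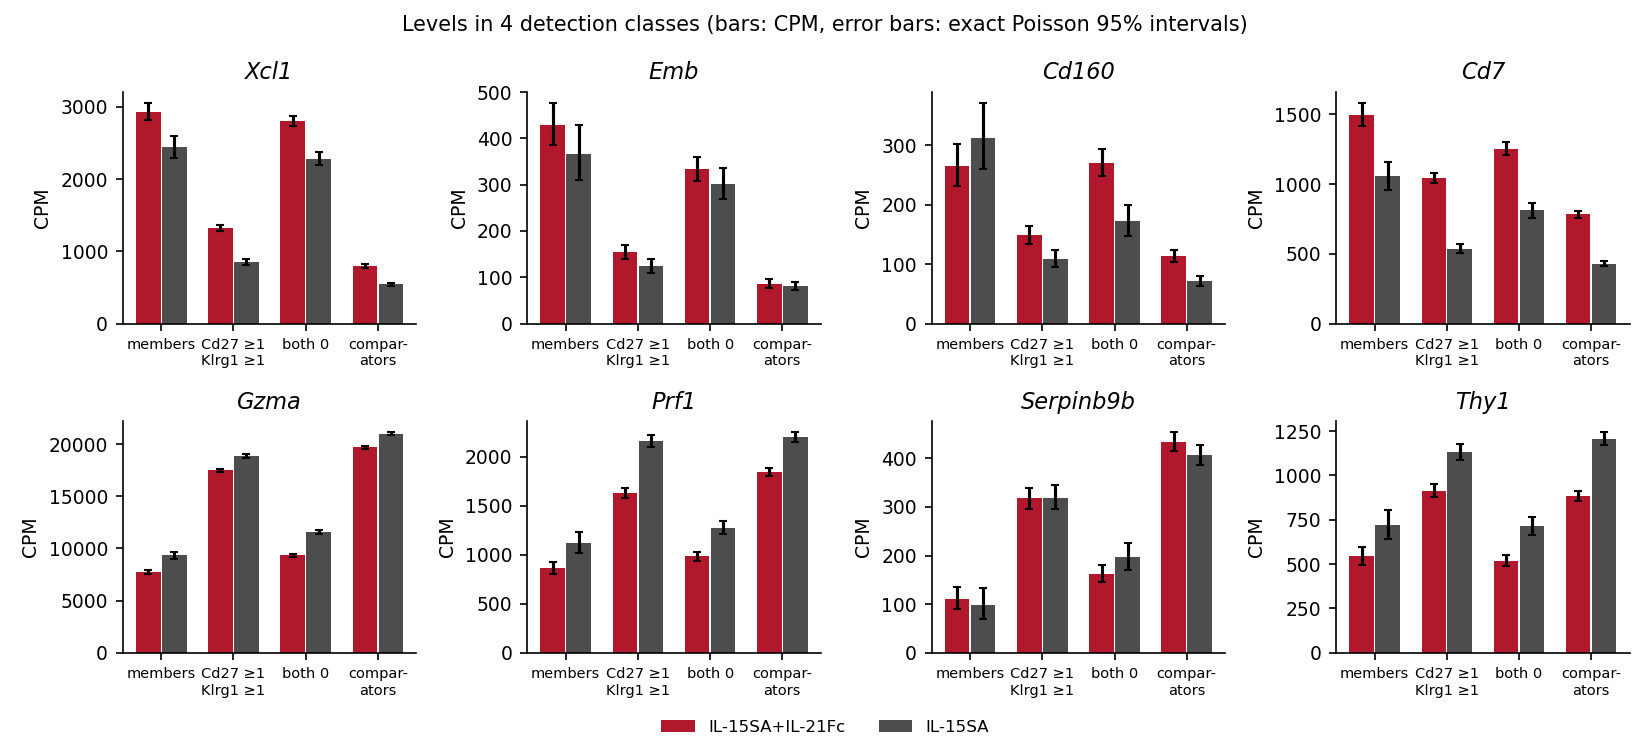
CPM of 8 genes in members, barcodes with Cd27 and Klrg1, barcodes with neither and comparators, by library, with exact Poisson 95% intervals. In Xcl1 and Emb, members and barcodes with neither are the 2 highest classes, and in Gzma, Prf1, Serpinb9b and Thy1 the 2 lowest.

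Smaller differences between members and barcodes with neither were seen in Cd7 and Serpinb9b. The ratio of members to barcodes with neither was 1.19 (1.11 to 1.28) and 1.30 (1.16 to 1.46) for Cd7. Serpinb9b was 1.47-fold lower (1.17 to 1.88) in members of the combination library and 2.01-fold lower (1.43 to 2.90) in members of the IL-15SA library. Cd160 stood apart between libraries, with ratios of 0.981 (0.835 to 1.15) in the combination library and 1.81 (1.44 to 2.29) in the IL-15SA library.

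Within the members, transcripts were spread unevenly. With each barcode thinned to 1000 UMIs, Xcl1 was detected in 74.6% of members (70.2 to 78.8) and 38.6% of comparators of the combination library, and in 65.5% (57.8 to 72.6) and 31.9% in the IL-15SA library. Without thinning these shares were 87.0% and 57.5%, and 81.5% and 53.3%. Barcodes over the limit on tumour genes can also contain NK transcripts, so they give no clean background level. They gave 32.5% (30.0 to 35.1) at a median depth of 1906 UMIs and 24.1% (19.8 to 28.7) at 2119.5. Comparators, with intervals of 36.3 to 40.9 and 29.3 to 34.6, lay above them. The median member had 2 Xcl1 UMIs per 1000 in the combination library and 1 in the IL-15SA library, and the highest had 23 and 27.

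Gzma was detected in nearly every thinned member, 94.9% in the combination library and 98.2% in the IL-15SA library, and in 85.2% and 92.8% of barcodes over the limit on tumour genes. Its median was 6 UMIs per 1000 in members and 19 in comparators of the combination library, and 7 and 20 in the IL-15SA library. Emb was detected in 27.1% of members and 8.47% of comparators of the combination library, and in 29.2% and 7.504% in the IL-15SA library. Serpinb9b was detected in 7.49% of members and 24.5% of comparators of the combination library, and in 6.55% and 24.4% in the IL-15SA library. Barcodes over the limit on tumour genes gave 9.45% and 9.89% for Serpinb9b, and 5.52% and 4.55% for Emb. As these barcodes also contain NK transcripts, their shares are not a background level for an NK gene.

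ILC1 carry NKp46 and pass the sort, and some of their markers were higher in members. At 1 or 2 UMIs of the 5 ILC1 genes of the rule stood 115 of 414 members (27.8%) and 180 of 1794 comparators (10.03%) of the combination library. In the IL-15SA library these were 53 of 168 members (31.5%) and 130 of 1226 comparators (10.6%). Of 8 measured ILC1 markers outside the rule, Tmem176a, Tmem176b, Ckb and Gpr183 were at least 1.5-fold higher in members of both libraries and 0 lower by as much. Ltb4r1 and Cd3g differed in sign between the libraries. The summed level of the 8 was 841 CPM in members and 479 CPM in comparators of the combination library, and 827 and 461 CPM in the IL-15SA library. Barcodes with neither Cd27 nor Klrg1 had similar sums, 820 CPM in the combination library and 842 CPM in the IL-15SA library. Itga1, the gene of the ILC1 integrin CD49a, was at 34.8 CPM in members and 36.4 CPM in comparators of the combination library, and at 29.3 and 34.04 CPM in the IL-15SA library. Tmem176a and Tmem176b are not specific to ILC1 in these files. After thinning to 1000 UMIs, Tmem176a was detected in 12.6% of members, 5.24% of comparators and 37.3% of barcodes over the limit on tumour genes in the combination library, and in 10.1%, 4.08% and 32.4% in the IL-15SA library. Tmem176b was detected in 13.5%, 6.69% and 43.3% in that order in the combination library, and in 17.9%, 5.55% and 46.3% in the IL-15SA library. The shares of members were thus above those of comparators and below those of barcodes over the tumour limit. Which cells this part of the ILC1 sum came from was not tested.

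With all 5 ILC1 genes at 0, the members numbered 299 in the combination library and 115 in the IL-15SA library. Xcl1 was then at 2736 CPM in members and 687 CPM in comparators of the combination library, and at 2203 and 500 CPM in the IL-15SA library. Gzma was at 9205 CPM in members and 20232 CPM in comparators of the combination library, and at 11055 and 21532 CPM in the IL-15SA library. Members with 1 or 2 ILC1 UMIs had less Gzma than members with 0, 4052 CPM against 9205 CPM in the combination library and 5995 CPM against 11055 CPM in the IL-15SA library. Xcl1 was higher and Gzma lower in members at 0 than in comparators at 0, in each library. A count of 0 in 5 sparse genes does not remove every ILC1, and their part in the other results was not tested.

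Markers of other cell types were counted in the same way. Of 15 T cell markers 9 were measured, with Trbc2 at least 1.5-fold higher in members and Trdc lower. Their summed level was 2252 CPM in members and 2170 CPM in comparators of the combination library, and 2202 and 2107 CPM in the IL-15SA library. Cd3e had 0 UMIs in members of the combination library and was at 9.76 CPM in those of the IL-15SA library, and Cd8a had 0 UMIs in both. Of 19 myeloid markers 3 were measured, with a summed level of 57.6 CPM in members and 83.3 CPM in comparators of the combination library, and 51.3 and 59.4 CPM in the IL-15SA library. Of 9 mast cell or basophil markers 4 were measured, with 0 at least 1.5-fold higher and 3 lower in members of both libraries. They summed to 27.6 CPM in members and 90.6 CPM in comparators of the combination library, and to 21.97 and 42.1 CPM in the IL-15SA library. Cma1, counted above among late-stage NK genes, made up 69.0 CPM of the sum in comparators of the combination library and 19.7 CPM in those of the IL-15SA library.

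Genes of MHC class II presentation were higher in members, 5 of 6 measured by at least 1.5-fold in both libraries. H2-Eb1 was at 33.6 CPM in members and 8.20 CPM in comparators of the combination library, and at 26.8 and 4.32 CPM in the IL-15SA library. H2-Ab1 was at 116 CPM in members and 52.8 CPM in comparators of the combination library, and at 109.8 and 43.8 CPM in the IL-15SA library. Cd74, the invariant chain gene, was at 37.2 CPM in members and 17.5 CPM in comparators of the combination library, and at 29.3 and 6.75 CPM in the IL-15SA library. Barcodes with neither Cd27 nor Klrg1 had 61.4 and 16.9 CPM of Cd74. The 6 genes summed to 300.1 CPM in members and 299 CPM in that class of the combination library, and to 247 and 186 CPM in the IL-15SA library. Of 31 Cd74 UMIs in members of the combination library, 7 came from 1 barcode. In members of the IL-15SA library Cd74 rested on 12 UMIs and H2-Eb1 on 11. Summed myeloid and B cell levels beside these are given above for myeloid markers, and B cell markers summed to 140.4 CPM in members and 93.6 CPM in comparators of the combination library and to 90.3 and 67.0 CPM in the IL-15SA library, all measured from Ighm. Whether cells of other types take part in these values was not tested.

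The comparison of treatments within members asked how these barcodes differed when IL-21Fc was given with IL-15SA. Members of the combination library held more Ccl5, Ltb and Cd7 and less Gzmd, Gzme and Ifitm1 than members of the IL-15SA library. Ltb was at 1231 CPM in the combination library and 808 CPM in the IL-15SA library, a ratio of 1.52 (1.35 to 1.73), against 1.58 for comparators. For Cd7 the levels were 1496 CPM in the combination library and 1054 CPM in the IL-15SA library, with a ratio of 1.42 (1.27 to 1.59), against 1.82 for comparators. Ccl5 stood at 7125 CPM in the combination library and 4679 CPM in the IL-15SA library, and its ratio was 1.52 (1.45 to 1.60), against 2.60 for comparators. Ccl5 was thus higher in the combination library in both populations, with the larger ratio in comparators.

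Of 5865 genes at 20 CPM or more in 1 of the 2 libraries, 747 (12.7%) were higher by 1.5-fold or more in members of the combination library and 654 (11.2%) were lower by as much. Of the 20 genes with the most extreme ratios at this limit, 15 had at most 3 UMIs in the library where they were lower. Rad51d, Ier5l and Mr1 had 0 UMIs in members of the IL-15SA library and were at least 3.44-fold, 3.44-fold and 2.95-fold higher in the combination library against a floor of 3 UMIs. At the other end, all 23 Slc44a4 UMIs in members of the IL-15SA library came from 1 barcode, and 15 of 24 Ccl1 UMIs came from 1. Ratios of this size from 1 barcode describe that barcode.

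At 100 CPM or more, a limit chosen after the data were seen, 49 of 1648 genes (2.97%) were higher by 1.5-fold or more in members of the combination library and 42 (2.55%) were lower by as much. Osgin1, an oxidative stress response gene, was highest, at 286 CPM in the combination library and 100.1 CPM in the IL-15SA library, a ratio of 2.85 (2.04 to 4.08). Next came Tmem243, Rnf125, Gpr65 and Ifi44, with log2 ratios of 1.24, 1.16, 0.98 and 0.90. Osgin1 and Ifi44, an interferon-induced gene, were also higher in comparators of the combination library, with log2 ratios of 0.96 and 0.72, whereas those of Tmem243 and Rnf125 were 0.11 and -0.05.

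On the lower side, Gzmd was at 27.6 CPM in the combination library and 105 CPM in the IL-15SA library, a log2 ratio of -1.89, and Gzme at 27.6 and 100.1 CPM, a log2 ratio of -1.82. In comparators these log2 ratios were -0.99 and -1.34. Of 43 Gzmd UMIs in members of the IL-15SA library 11 came from 1 barcode, and of 41 Gzme UMIs 10 did. Each gene had 23 UMIs in members of the combination library, of which 4 for Gzmd and 7 for Gzme came from 1 barcode. Ifitm1, an interferon-induced membrane gene, was at 188 CPM in members of the combination library and 596 CPM in those of the IL-15SA library, a log2 ratio of -1.65, against -1.31 in comparators. Of 157 Ifitm1 UMIs in members of the combination library, 61 came from 1 barcode. Gzmb was at 4287 and 5907 CPM and Prf1 at 867 and 1123 CPM in members, and Gzma at 7698 and 9331 CPM. All 3 were lower in the combination library, by less than 1.5-fold.

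**Figure D5:**
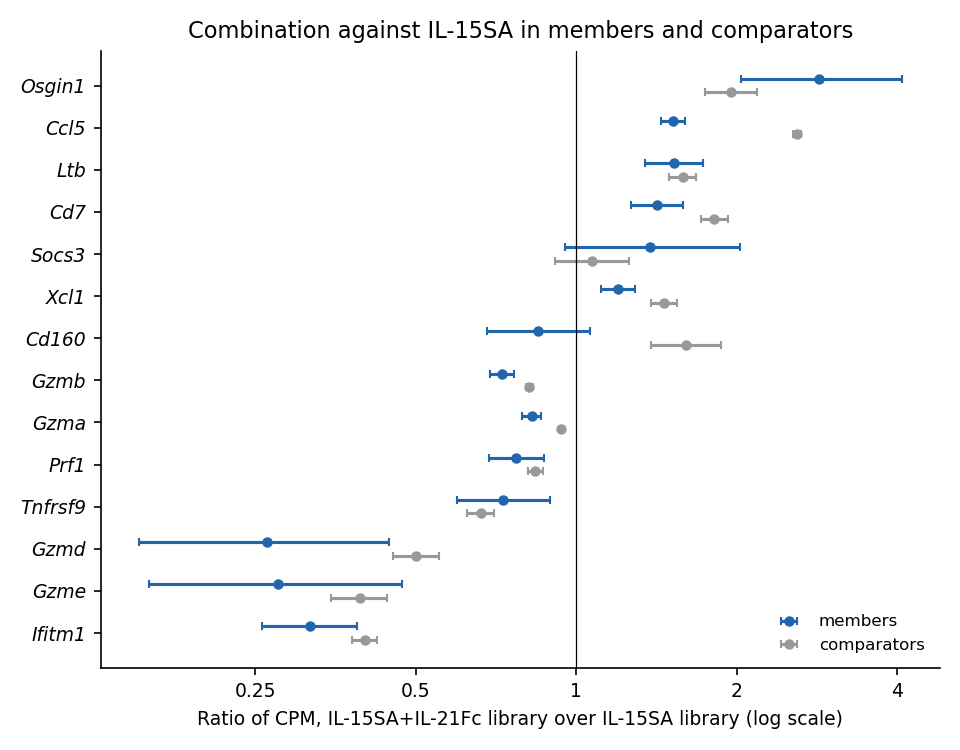
CPM of the combination library divided by CPM of the IL-15SA library (log axis) for 14 genes in members and in comparators, with exact 95% intervals. Osgin1, Ccl5, Ltb and Cd7 lie above 1 and Gzmd, Gzme and Ifitm1 below 1 in both populations, and Cd160 lies above 1 in comparators while its interval in members includes 1.

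Lists of cytokine response were read between libraries against all 9913 genes at the limit for lists, of which 2053 (20.7%) were higher by 1.5-fold or more in members of the combination library and 1643 (16.6%) lower. The type I interferon list had a median log2 ratio of 0.33 in members and 0.66 in comparators, with 11 of 28 genes higher by that much and 2 lower in members. The IL-21 and STAT3 list had a median of -0.08 in members and 0.10 in comparators, with Bcl6 higher and Socs1 and Prdm1 lower by at least 1.5-fold in members. Bcl6 rested on 30 UMIs in members of the combination library and 3 in those of the IL-15SA library. For Prdm1 the log2 ratio turned round to 0.17 when barcodes with any cycling gene were left out. Socs3, a feedback inhibitor of STAT3, was at 134 CPM in members of the combination library and 97.6 CPM in those of the IL-15SA library, a ratio of 1.38 with an interval, 0.952 to 2.03, that includes 1. The IL-15 and STAT5 list had a median of -0.15 in members and -0.09 in comparators. Over all 9913 genes the median was -0.0035 in members and 0.0008 in comparators.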

How the data were processed

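The authors deposited UMI counts per gene and barcode, 1 table per library, from a GEXSCOPE microwell kit, per the labels' protocols. The submitters' processing notes name cutadapt, featureCounts, Seurat 4.0, Scanpy and mm10 without their roles, and no filter on barcodes beyond the deposited tables is given in the sources used here. UMIs were summed per population and library and scaled to counts per 1000000 (CPM) with Python 3.11.15, numpy 2.4.6, scipy 1.17.1 and pandas 2.3.3. Ratios have exact conditional binomial intervals, shares Clopper-Pearson intervals and CPM Poisson intervals. A gene entered the count of 1.5-fold differences at 20 CPM in either population, and list members at 5 CPM. The 12 genes highest and lowest by the smaller log2 ratio of both libraries were named, then the 10 at each end between libraries, 4 genes per list, and key genes, without those of the rule. Genes named to describe a list in full, and some single markers, were chosen after their values were seen. Members and lists were chosen with earlier results of these data known. Scrublet, run through scanpy 1.11.5, marked 0 and 2 barcodes by its automatic threshold, too few to have worked, so doublets stayed in. The scripts were tested on simulated data. Alternatives covered depth, doublets, each limit of the rule, scaling and filters. With 1 library per treatment, treatment and library cannot be told apart. Some single genes are not reported here.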

Additional observations from a re-analysis of the deposited data

Results flagged for a closer look

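Ccl5 was singled out because its ratio of members to comparators lay on opposite sides of 1 in the 2 libraries with intervals that exclude 1. The ratio was 0.621 (0.604 to 0.638) in the combination library and 1.06 (1.01 to 1.11) in the IL-15SA library. Comparators of the combination library held the most Ccl5, 11476 CPM, against 4421 CPM in those of the IL-15SA library. These ratios compare summed UMIs. With barcodes thinned to equal depth, the median was 4 Ccl5 UMIs in both members and comparators of the combination library. The ratio of 0.621 therefore does not describe the median barcode. The difference between the ratios was not tested, since each treatment had 1 library.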

How the results depend on the processing

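No paired analysis was possible because 1 library stood for each treatment. Members with 2 or more Cd27 UMIs numbered 158 in the combination library and 66 in the IL-15SA library, 3.23% and 2.32% of passing barcodes. Against comparators 262 genes were then at least 1.5-fold higher and 110 lower, and between libraries 1337 higher and 1208 lower. With size factors 95 genes were higher in members. At 5, 50 and 100 CPM, 389, 63 and 35 genes were higher and 227, 30 and 20 lower in members than in comparators. Between libraries these limits gave 1920, 190 and 49 higher and 1545, 202 and 42 lower. The limits of 100 CPM and of ILC1 genes at 0, and the removal of barcodes in both libraries, were chosen after seeing the data. Shares of members were 7.29% and 4.73% without the Ly49 limit, 7.31% and 4.83% with ILC1 genes at 0, and, after thinning to 1000 UMIs, 7.59% in the combination library. The cause was not tested.

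Of the single-gene values under alternatives, 4909 stayed within their error, 188 moved beyond it and 13 changed sign from a ratio of at least 1.5-fold. Changes of sign in smaller ratios were not counted apart. Between libraries, with cycling genes at 0, the log2 ratio became 0.20 for Bub1b, 2.12 for Ccl1, 0.17 for Prdm1 and 1.42 for Slc44a4. For Slc44a4 it became 1.19 with matched UMIs and 1.43 with ILC1 genes at 0, where Slc16a3 became 0.0411. With 2 or more Cd27 UMIs, Cdc45 became 3.69 and Tnfsf8 -0.60, and without the Ly49 limit Cma1 became 0.0847. For members over comparators, Ccnb1 became -0.58 in the combination library with cycling genes at 0. With ILC1 genes at 0, Nt5e became -0.29 in the combination library and Tnfsf14 -0.66 in the IL-15SA library. Of list medians 673 stayed within a fixed log2 distance of their main value, which is not an error interval, and 174 moved further. Members of the IL-15SA library held 409704 UMIs, which limits every gene under about 20 CPM.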

Other observations

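Gene groups not described above were set beside the same members and comparators. Of all 9913 genes at the 5 CPM limit for lists, 5% were at least 1.5-fold higher in members of both libraries and 2.93% lower, with a median log2 ratio of 0.07 in the combination library and 0.06 in the IL-15SA library. Immediate early genes, which answer stimulation and tissue handling, had a median log2 ratio of members over comparators of 0.25 in the combination library and 0.45 in the IL-15SA library. Of 24 measured, Zfp36 was at least 1.5-fold higher in both libraries, at 953 CPM in members and 575 CPM in comparators of the combination library and at 622 and 400.4 CPM in the IL-15SA library, and 0 were lower. Of 28 type I interferon response genes, 5 were at least 1.5-fold higher and 0 lower, with medians of 0.25 and 0.42. Ifi27l2a was at 284 CPM in members and 186 CPM in comparators of the combination library, and at 212 and 111 CPM in the IL-15SA library.

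Of 21 glycolysis genes 0 were higher and 2, Pfkl and Slc16a3, lower by at least 1.5-fold, with medians of -0.20 and -0.15. Cytosolic ribosomal protein genes, 38 measured, had medians of -0.03 and -0.04 with 0 past 1.5-fold in either direction, and the 24 MYC and ribosome biogenesis genes had medians of 0.12 and -0.07 with 0 past it. Among 16 survival and death genes 1, Bcl2a1d, was higher and 1 lower. Of 22 TNF receptor superfamily genes Tnfrsf25 was higher and Tnfrsf9 lower. Of the cell cycle lists, which the rule's limit on cycling genes touches, 0 of 23 S phase genes were higher and 1 lower, and 4 of 21 G2 and M phase genes were higher and 0 lower, with Ccnb1 among them turning round in the combination library, to a log2 ratio of -0.58, when the rule's cycling genes were at 0. Of 10 NK cell markers outside the rule 0 were higher and 2, Gzma and Prf1, lower. Of 4 measured tumour or stroma markers outside the rule 0 were higher and 1, Thy1, which NK cells also express, lower. Of 5 erythroid markers 0 were measured.

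In the IL-15 and STAT5 list, 2 of 23 genes, Il2ra and Lif, were higher and 2, Tnfrsf9 and Prf1, lower, with medians of -0.03 and 0.06. In the IL-21 and STAT3 list, 3 of 18 genes, Maf, Ahr and Il2ra, were higher and 0 lower, with medians of 0.23 and 0.32.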
